A study of Mus musculus with 19 samples.

Results

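Transcripts of 7 genes that act in the growth and repair of peripheral nerve were followed in cells of the injury site after burn and Achilles tenotomy in the mouse, an injury after which bone forms in the soft tissue (heterotopic ossification). The 7 genes were chosen by name among the 27998 genes of the count matrices, and all 7 had UMIs (unique molecular identifiers, each standing for 1 captured transcript). They were the neurotrophins Bdnf and Ntf3, the GDNF family ligands Gdnf and Artn, the receptors Ngfr and Gfra1, and the growth cone protein Gap43. Single cell libraries were made from tissue at the tenotomy site, with 4 libraries for day 0, 3 for day 3, 4 each for day 7 and day 21, and 4 more for day 7 in mice given p7N3, a peptide that activates CD47. The mice received a partial thickness scald of the back and a cut Achilles tendon, and the methods of the study describe young adult male C57BL/6J mice aged 6 to 10 weeks. The labels list the burn for day 0 as well, whereas the methods take day 0 as tissue without injury. The labels name C57 and LysmCre/Tgfb1fx/fx mice for the whole series and give no genotype per library, so that genotype cannot be told apart from replicate here. LysmCre acts in myeloid cells. Per the labels, the peptide was given daily in the 3 days before and the 3 days after injury, while the study's text describes longer dosing for its mice. The methods give the peptide's dose as 10 mg/kg, injected into the peritoneum. The methods name PBS for its controls while the labels name no vehicle, and the labels give no harvest day for p7N3 replicate 4. The study describes its single cell replicates as a measure of variability between mice, but the labels tie no library to an animal, so that p values measure the spread between these samples.

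Neurotrophins are secreted proteins that keep neurons alive and guide their axons. They act through Trk receptor kinases and through Ngfr, the p75 receptor that binds every neurotrophin and is also carried by Schwann cells, the glia that wrap peripheral axons in myelin. GDNF family ligands bind a GFRalpha co-receptor, Gfra1 for GDNF and mainly Gfra3 for artemin (Artn), which then engages the Ret kinase. After a nerve is cut, Schwann cells beyond the cut are known to shut down myelin genes and to make receptors, adhesion proteins and trophic factors on which axons regrow, and Gap43 is a membrane protein of growing axon tips that Schwann cells without myelin also make. Ngfr is found on some pericytes and fibroblasts as well.

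On the GRCm38 assembly, the GENCODE annotation places Ngfr on chromosome 11 at 95568818 to 95587735 on the minus strand, Gfra1 on chromosome 19 at 58235604 to 58455909 (minus), Bdnf on chromosome 2 at 109674700 to 109727007 (plus), Ntf3 on chromosome 6 at 126101412 to 126166910 (minus), Gdnf on chromosome 15 at 7810846 to 7837575 (plus), Artn on chromosome 4 at 117926162 to 117929763 (minus) and Gap43 on chromosome 16 at 42248442 to 42340651 (minus). The 250 bases before annotated starts, from RefSeq on GRCm38.p6, were read for 6 of the 7 genes, in 14 windows. The windows of Ngfr, Gdnf and Artn are shown because these genes rose in the same Schwann-like cells. That of Bdnf is shown because it was the only member window with the letters TGANTCA, where N is any base. Sites of AP-1, the dimer of Jun and Fos proteins, are known to have C or G at N, whereas this match has A. Both strands were searched, and the capitals mark the match.
Ngfr, chr11:95587699-95587948, minus strand: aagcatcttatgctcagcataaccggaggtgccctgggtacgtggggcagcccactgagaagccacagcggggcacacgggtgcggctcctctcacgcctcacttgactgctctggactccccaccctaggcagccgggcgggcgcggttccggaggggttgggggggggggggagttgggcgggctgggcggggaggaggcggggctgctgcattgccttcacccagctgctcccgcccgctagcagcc
Gdnf, chr15:7809798-7810047, plus strand: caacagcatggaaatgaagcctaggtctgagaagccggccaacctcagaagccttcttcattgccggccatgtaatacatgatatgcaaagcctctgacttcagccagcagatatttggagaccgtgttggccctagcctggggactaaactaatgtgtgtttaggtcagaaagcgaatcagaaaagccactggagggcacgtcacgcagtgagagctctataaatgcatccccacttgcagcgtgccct
Artn, chr4:117929764-117930013, minus strand: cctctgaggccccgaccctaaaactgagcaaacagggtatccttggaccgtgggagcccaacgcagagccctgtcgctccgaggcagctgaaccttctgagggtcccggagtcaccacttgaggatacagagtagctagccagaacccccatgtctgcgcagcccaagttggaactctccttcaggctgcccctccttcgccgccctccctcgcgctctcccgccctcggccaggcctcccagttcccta
Bdnf, chr2:109676782-109677031, plus strand: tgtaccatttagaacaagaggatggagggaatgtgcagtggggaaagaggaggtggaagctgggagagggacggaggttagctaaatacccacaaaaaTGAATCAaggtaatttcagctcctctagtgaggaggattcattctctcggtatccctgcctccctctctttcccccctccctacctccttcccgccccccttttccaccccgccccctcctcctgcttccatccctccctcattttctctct
Of all 32851 windows of this length, 6.75% held the motif, and so did 1 of the 14 member windows, which is a description only. The GC content was 70.4% in the Ngfr window, 50.8% for Gdnf, 63.6% for Artn and 53.6% for Bdnf, against a median of 52.4% over all windows.

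After filtering, 39541 cells remained, 571 to 3668 per library, with 3019467 to 39870492 UMIs in the cells of a library. Day 0 was the shallowest group, at 3019467 to 5383855 UMIs. Clusters were named from marker genes. Stromal-like cells (137 to 1189 per library), mural-like cells (25 to 223; pericytes and vascular smooth muscle) and monocyte/macrophage-like cells (71 to 1508) were present in all 19 libraries. The 405 Schwann-like cells were few, with 17 to 43 per day 0 library, 2 to 6 per day 3 library, 9 to 35 and 36 to 59 on day 7 and day 21, and only 3 to 14 under p7N3. Their list of 10 markers was fully detected at day 0, day 7 and day 21, but its summed level was 61370 to 67830 CPM (UMIs scaled to a library sum of 1e6) in day 0 libraries, 1214 to 2370 CPM by day 7, then 14220 to 43960 CPM by day 21. That list holds myelin genes such as Mbp, Mag, Cnp and Ncmap. Markers of other cells were seen in the sums. In day 0 stromal-like cells this Schwann list was low, at 170 to 232 CPM, while stromal markers were higher than that in the Schwann-like sums, as given below. CPM of 3 prime UMIs is not scaled by gene length, so levels are compared between samples and cell types and not between genes.

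The 7 genes lay in different cells. Pooled over all libraries, which weights the deeper groups more, mural-like cells held 39.4% of the 2761 Ngfr UMIs and Schwann-like cells 37.0%, although the latter gave 0.737% of all UMIs of the series. The order differed by group. Mural-like cells held more of the Ngfr UMIs at day 7 (422 against 352 of 961) and with p7N3 (325 against 66 of 546), and Schwann-like cells at day 3 (180 against 70 of 356) and day 21 (418 against 271 of 851). At day 0, of only 47, 17 lay in satellite/muscle-like cells, 16 in stromal-like cells and 6 in Schwann-like cells. Stromal-like cells, with 38.5% of all UMIs, held 82.7% of the 1296 Artn UMIs, 77.1% of the 6342 Gfra1 UMIs, 64.6% of the 3454 Bdnf UMIs and 64.4% of the 337 Gdnf UMIs. Another 13.9% of the Gdnf UMIs and 16.1% of the 6761 Gap43 UMIs lay in Schwann-like cells. Most Gap43 UMIs thus lay elsewhere. Stromal-like cells held 93.3% of its 165 UMIs at day 0. At day 7 they held 49.3% of 2988, and endothelial-like cells 23.7%. Ntf3 was spread over stromal-like (45.8% of 2009 UMIs), endothelial-like (25.4%) and mural-like cells (13.0%). Monocyte/macrophage-like cells, with 24.1% of all UMIs, held from 0.647% (Ntf3) to 3.26% (Gdnf) of the UMIs of each gene. At day 0 alone, stromal-like cells held 95 of 216 Gfra1, 4 of 42 Bdnf, 4 of 14 Artn and 0 of 7 Gdnf UMIs. Of those, mural-like cells held 13 Bdnf and 9 Artn UMIs, and satellite/muscle-like cells 12 Bdnf and 5 Gdnf UMIs.

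**Figure D1:**
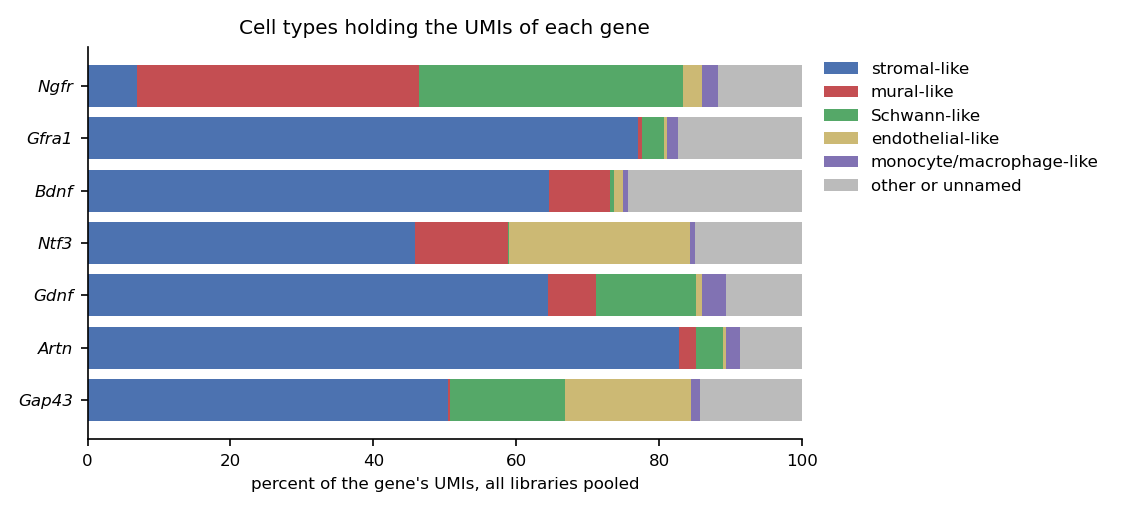
Percent of each gene's UMIs, over all 19 libraries pooled, that lay in stromal-like, mural-like, Schwann-like, endothelial-like, monocyte/macrophage-like and all other cells. Ngfr was divided between mural-like (39.4%) and Schwann-like cells (37.0%), whereas the GDNF family ligands, Gfra1 and Bdnf lay mainly in stromal-like cells.

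To learn how Schwann-like cells changed, UMIs were summed per library and the sums compared between groups. Of the 7 genes, 4 rose at day 7 against day 0 and 2 at day 21, and none fell, whereas no member differed between day 21 and day 7. Ntf3, with 1 UMI in all these sums, was not tested. Of all 10079 genes tested in these cells, 25.9% passed at day 7 against day 0, 9.51% at day 21 against day 0 and 15.9% at day 21 against day 7. The day 7 and day 21 comparisons share the day 0 libraries. No member had an unadjusted p under 0.05 at day 21 against day 7, and DESeq2 called 0 as well.

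Ngfr read 0, 15.1, 9.81 and 25.4 CPM in the 4 day 0 libraries. It read 292, 449.5 and 205 CPM in the 3 day 7 libraries with at least 10 Schwann-like cells, and 336, 40.7, 215 and 556 CPM in the 4 day 21 libraries. Day 7 replicate 4, with 9 such cells, is left out of the day 7 values and tests of all members. Each of these libraries of day 7 and day 21 lay above every day 0 library, although day 21 replicate 2 was far below the others of its day. The log2 fold change was 4.40 ± 0.73 (SE) at day 7 (adjusted p = 5.44e-05) and 4.27 ± 0.72 at day 21 (adjusted p = 2.78e-04). Day 3 could only be described, because its 3 libraries held 2 to 6 Schwann-like cells each, and there Ngfr read 1313, 1036 and 959.65 CPM.

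Gap43 had no UMI in any day 0 library, over 108 cells and 405689 UMIs. It read 201, 420.1 and 293 CPM at day 7 and 410.1, 208, 229 and 901 CPM at day 21. Pooled over all 80 day 7 cells, with replicate 4, Gap43 read 243.56 CPM, against a mean of 304.51 CPM in the libraries used. Thus no day 0 library overlapped with the later ones, and the spread among the day 21 libraries was wide. The floor of 3 counts over the day 0 group was 7.39 CPM. Pooled over libraries, Gap43 lay 36.9-fold above it at day 7 (adjusted p = 3.7e-06) and 67.6-fold at day 21 (adjusted p = 6.9e-06). Here and below, such folds take no account of the spread between the libraries of the pooled group. The few day 3 cells read 1159, 444 and 2253 CPM.

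The ligands Gdnf and Artn were likewise without a UMI in day 0 Schwann-like cells. Gdnf, the trophic factor of motor neurons in particular, read 29.8, 16.8 and 14.6 CPM at day 7, or 3.17-fold above the floor when pooled (adjusted p = 0.0117). At day 21 it read 12.3, 0, 11.1 and 16.1 CPM (adjusted p = 0.128), so that 1 of the 4 libraries had no UMI. The day 7 call rested on 23 UMIs, and all 80 day 7 cells, with replicate 4, held no more than these 23. The call was lost without day 7 replicate 1 (adjusted p = 0.05648). Artn, which acts on sensory and sympathetic neurons, read 9.30, 37.8 and 9.75 CPM at day 7, or 2.21-fold above the floor when pooled (adjusted p = 0.0359). Pooled over all 80 day 7 cells, with replicate 4, Artn read 14.8 CPM, against a mean of 18.95 CPM in the libraries used. At day 21 Artn read 3.08, 12.2, 11.1 and 25.4 CPM (adjusted p = 0.104). All later libraries lay above day 0, but the 3.08 CPM of day 21 replicate 1 is under the day 0 floor of 7.39 CPM. That library can thus not be told apart from day 0. The day 7 call was lost with DESeq2 (adjusted p = 0.07412) and, when 1 library was left out, without any day 0 replicate or without day 7 replicate 2 (adjusted p up to 0.1132).

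Bdnf and Gfra1 were not called in Schwann-like cells. Bdnf had 0 UMIs at day 0, read 7.44, 0 and 0 CPM at day 7, and 6.17, 8.15, 3.70 and 23.1 CPM at day 21 (adjusted p = 0.149). Gfra1, the co-receptor for GDNF, was already present at day 0, at 24.96, 151, 29.4 and 25.4 CPM. It read 61.4, 79.8 and 24.4 CPM at day 7 and 40.1, 40.7, 44.4 and 76.1 CPM at day 21, and the groups overlapped. The log2 fold change was 0.27 at day 7, with a 95% interval from -0.77 to 1.31, and 0.10 at day 21, from -0.90 to 1.09.

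**Figure D2:**
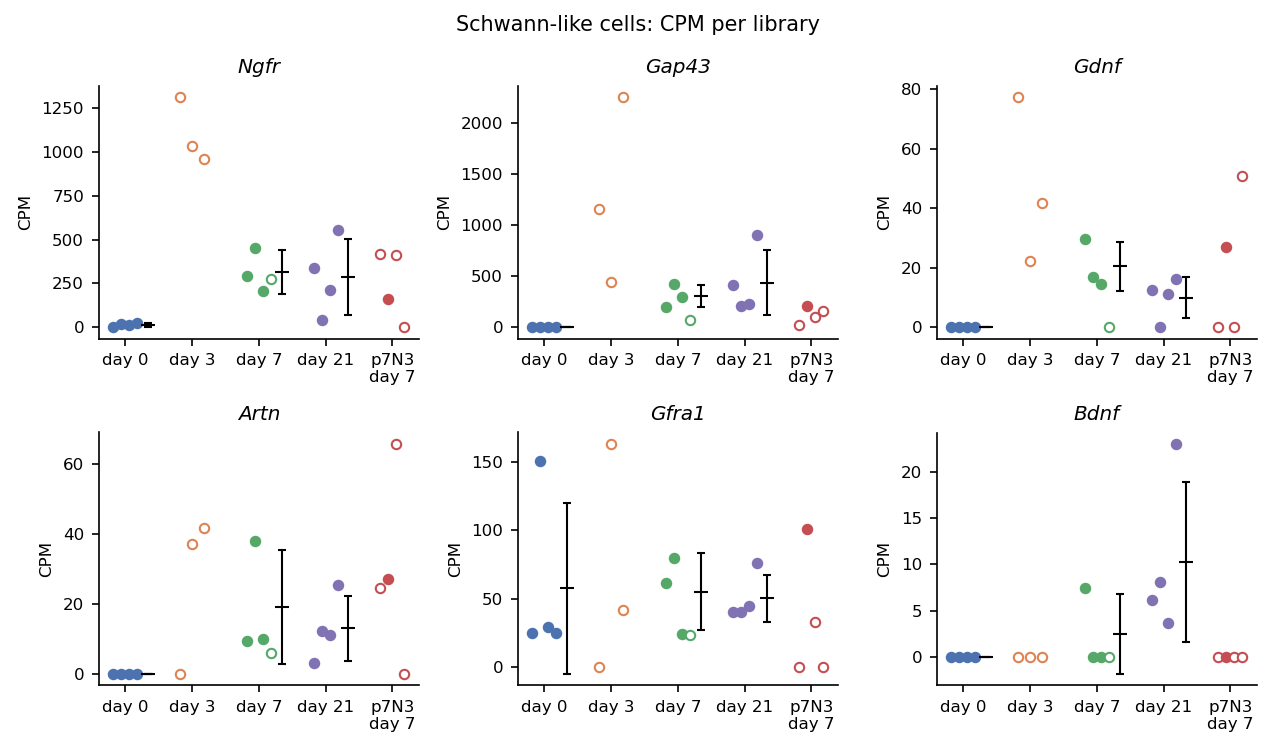
CPM of 6 genes in Schwann-like cells, with 1 point per library, filled for sums of at least 10 cells and open for fewer, and the mean ± SD of the filled points where there are at least 2. Gap43, Gdnf, Artn and Bdnf sit at 0 in all 4 day 0 libraries, and Gfra1 overlaps between the groups.

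At a finer clustering, the Schwann-like cells divided into a cluster of 149 cells led by genes of myelinating cells (Drp2, Ncmap, Fa2h), called the Drp2 cluster, and a cluster of 256 cells led among others by Fgf5 and the cell cycle genes Birc5 and Top2a, called the Fgf5 cluster. Ngfr and Gap43 were themselves among the leading genes of the latter. The members were kept out of the genes used for clustering, but the clusters come from the same cells, so their levels are a description without a test. At day 0, 86 of 108 cells lay in the Drp2 cluster, against 3 of 80 at day 7 and 57 of 181 at day 21. Ngfr, Gdnf and Artn had 0 UMIs in the Drp2 cluster at day 0, day 7 and day 21, and Gap43 had 2 UMIs there, both at day 21. In the Fgf5 cluster, pooled over libraries, Ngfr read 97.4 CPM at day 0, 310.4 at day 7 and 464 at day 21. Gap43 was at 0 in the 22 day 0 cells of that cluster, where the floor is 48.7 CPM, and read 247 CPM at day 7 and 704 at day 21. Gdnf read 20.3 and 15.5 CPM there at day 7 and day 21, and Artn 14.99 and 19.97 CPM. Gfra1 was the exception, at 55.2 CPM in the Drp2 cluster at day 0 and 45.6 at day 21, against 52.9 and 56.6 in the Fgf5 cluster at day 7 and day 21. Only 1 day 0 library held 10 cells of the Fgf5 cluster, so that a comparison with day 0 within it was not possible. From day 0 to day 7 the share of cells in the Fgf5 cluster and the sums of Ngfr, Gap43, Gdnf and Artn were both higher. From day 7 to day 21 that share was lower, at 124 of 181 cells against 77 of 80, while no member was called. The part of cluster makeup in the sums was not tested.

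Of 44 other genes in lists of the same pathways, 35 were tested in Schwann-like cells, of which 11 rose and 12 fell at day 7 against day 0, 9 rose and 5 fell at day 21, and 14 rose and 3 fell at day 21 against day 7. The median log2 change of the tested list genes was 0.60 at day 7 and 0.81 at day 21 against day 0, while that of all genes tested was 0.21 and 0.22. All 8 myelin genes fell at day 7 (Mbp, myelin basic protein, from a mean of 13836 to 249.3 CPM), and all 8 rose again from day 7 to day 21. Of the repair Schwann cell genes, Btc (a ligand of the EGF receptor), Uchl1, L1cam and Runx2 rose at day 7. Jun and Atf3, transcription factors of the injury response, fell at day 7 (Jun from a mean of 1154 to 467 CPM), and both rose from day 7 to day 21. Along with Gap43, the growth cone proteins Basp1, Marcks and Marcksl1 rose at day 7. Among the receptors, Nradd, a p75-like protein, and the co-receptors Gfra2 and Ncam1 rose at day 7, and Ntrk3 and Sort1 fell. Ret had 1 UMI in these sums at day 0 and none at day 7 or day 21.

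Markers of other cells moved with these results. The summed stromal list in the Schwann-like sums was 2787 to 7280 CPM in day 0 libraries, 5978 to 9294 CPM by day 7, then 5732 to 11270 CPM by day 21, with all 10 genes detected in each group. The macrophage list was 39.2 to 137 CPM at day 0 with 5 of 10 genes, including Adgre1 and Fcgr1, at 0, and 155 to 1034 CPM at day 7 with all 10 detected. Of 5 neuronal markers, Rbfox3, Snap25 and Syt1 were at 0 at day 7, and the list, with Tubb3 in it, summed to 385 to 1017 CPM. The part of free RNA in these values was not tested. UMIs per Schwann-like cell also differed, with averages of 3756, 14370 and 7038 on day 0, day 7 and day 21.

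In mural-like cells Ngfr rose and Ntf3 fell at day 3, day 7 and day 21 against day 0. Ngfr had 0 UMIs in all 4 day 0 libraries, over 181 cells. It read 27.4, 68.2 and 24.996 CPM at day 3, 68.8, 90.3, 60.1 and 72.6 CPM at day 7, and 54.3, 78.5, 37.2 and 41.4 CPM at day 21. Every library after injury lay above day 0. The floor of 3 counts was 3.67 CPM. Pooled Ngfr lay 9.84-fold above it at day 3 (adjusted p = 6.42e-05), 20.01-fold at day 7 (adjusted p = 4.06e-07) and 13.7-fold at day 21 (adjusted p = 1.32e-05). In all, members called in mural-like cells were 1 higher and 2 lower at day 3, where 30.2% of 13090 genes passed, 1 higher and 2 lower at day 7 (34.0%), 1 higher and 1 lower at day 21 (17.9%), and 2 higher and none lower at day 21 against day 7 (23.6%).

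The mural-like cells formed 2 clusters, which differed in the members they held. The cluster with Rgs5 and Higd1b, genes of pericytes, made up 38 of 181 cells at day 0, 69 of 95 at day 3, 471 of 559 at day 7 and 340 of 580 at day 21. Nearly all Ngfr lay there, at a pooled level of 44.3 CPM at day 3, 83.9 at day 7 and 78.4 at day 21, while the Myh11 and Pln cluster, with genes of smooth muscle, read 0, 1.38 and 7.89 CPM. In the 38 day 0 cells of the Rgs5 cluster Ngfr was at 0, with a floor of 28.1 CPM. Within the Rgs5 cluster alone, where only 2 day 0 libraries had 10 cells, Ngfr was higher at day 7 (adjusted p = 0.03158) and day 21 (adjusted p = 0.04996), and at day 3 adjusted p was 0.1353.

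Ntf3, which encodes the ligand of the TrkC receptor, read 34.1, 61.4, 56.9 and 67.5 CPM in mural-like cells at day 0. It read 0, 10.997 and 4.41 CPM at day 3, 5.24, 5.05, 9.67 and 2.90 CPM at day 7, and 24.9, 21.4, 31.5 and 15.2 CPM at day 21. All later libraries lay under every day 0 library, and the day 21 libraries all lay above those of day 7. The log2 fold change was -3.52 ± 0.60 at day 3 (adjusted p = 3.07e-05), -3.17 ± 0.46 at day 7 (adjusted p = 2.22e-06) and -1.19 ± 0.39 at day 21 (adjusted p = 0.0302), and 1.99 ± 0.38 at day 21 against day 7 (adjusted p = 2.34e-04). The day 21 call was lost without day 0 replicate 2, 3 or 4 or day 21 replicate 4 (adjusted p 0.05974 to 0.1398). It was also lost with replicates 1 to 3 only (adjusted p = 0.2277), with at most 10% mitochondrial UMIs (adjusted p = 0.0651) and with all genes in the clustering (adjusted p = 0.1817). Ntf3 lay in the Myh11 cluster at all times, with pooled levels of 61.9 CPM at day 0, 22.3 at day 3, 39.9 at day 7 and 52.9 at day 21, and at no time above 1.97 CPM in the Rgs5 cluster. Within the Myh11 cluster the log2 fold change was -0.59 at day 7 (adjusted p = 0.4194) and -0.10 at day 21 (adjusted p = 0.9221). The Myh11 cluster held 143 of 181 mural-like cells at day 0, 26 of 95 at day 3, 88 of 559 at day 7 and 240 of 580 at day 21. That share and the Ntf3 sums were both lower at day 7 than at day 0, and both higher at day 21 than at day 7. From day 3 to day 7 the share was lower, while pooled Ntf3 went from 4.13 to 5.74 CPM. The part of cluster makeup in the sums was not tested.

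Bdnf in mural-like cells, a ligand of TrkB, read 8.51, 0, 16.3 and 31.5 CPM at day 0, 12.7, 2.53, 17.3 and 0.726 CPM at day 7, and 23.6, 20.2, 37.2 and 30.5 CPM at day 21. The day 21 libraries all lay above those of day 7, by 1.80 ± 0.39 on the log2 scale (adjusted p = 0.00108), but overlapped with day 0 (adjusted p = 0.342). In the Rgs5 cluster alone the difference between day 21 and day 7 was 2.14 (adjusted p = 0.0003013). Artn read 0, 17.5, 12.2 and 18.0 CPM at day 0, from 9 UMIs in all, and had no UMI at day 3. It was called lower at day 3 (adjusted p = 0.00321), with the pooled day 0 level 7.11-fold above the day 3 floor of 3 counts. At day 7 Artn read 0, 0.631, 2.07 and 0 CPM, with a log2 fold change of -3.75 ± 0.93 (adjusted p = 0.00217). The day 7 call was lost with replicates 1 to 3 only (adjusted p = 0.05197). Day 0 replicate 1 overlapped with both. Those 9 UMIs lay in the Myh11 cluster, within which adjusted p at day 7 was 0.2567. Gdnf, Gfra1 and Gap43 had 23, 36 and 16 UMIs over all mural-like sums and were not called.

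**Figure D3:**
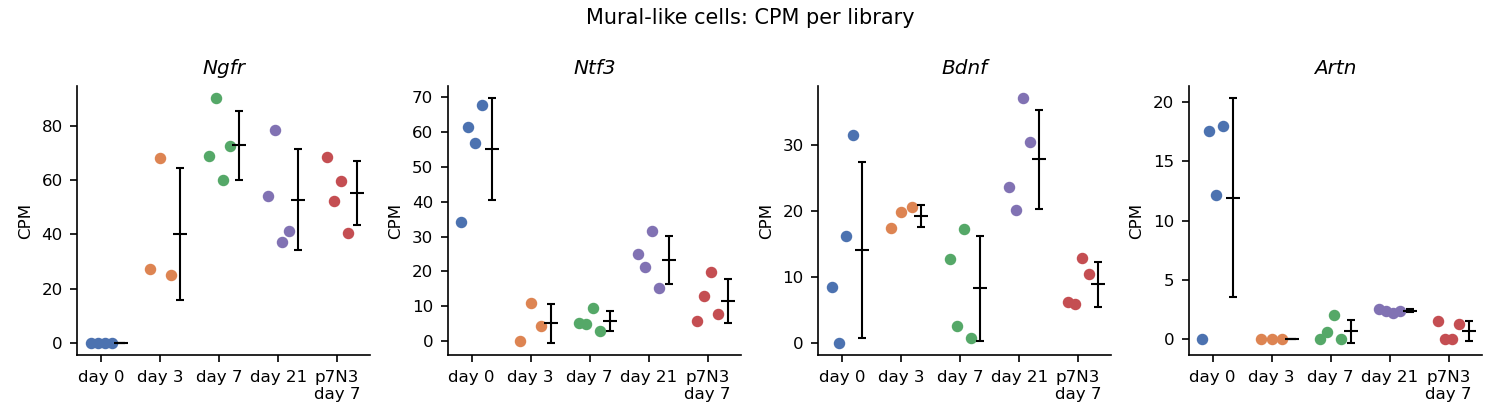
CPM of Ngfr, Ntf3, Bdnf and Artn in mural-like cells, with 1 point per library and the mean ± SD of each group. Ngfr is at 0 in the 4 day 0 libraries and at 24.996 CPM or more in every library after injury, whereas Ntf3 is highest at day 0 and partly back at day 21.

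**Figure D4:**
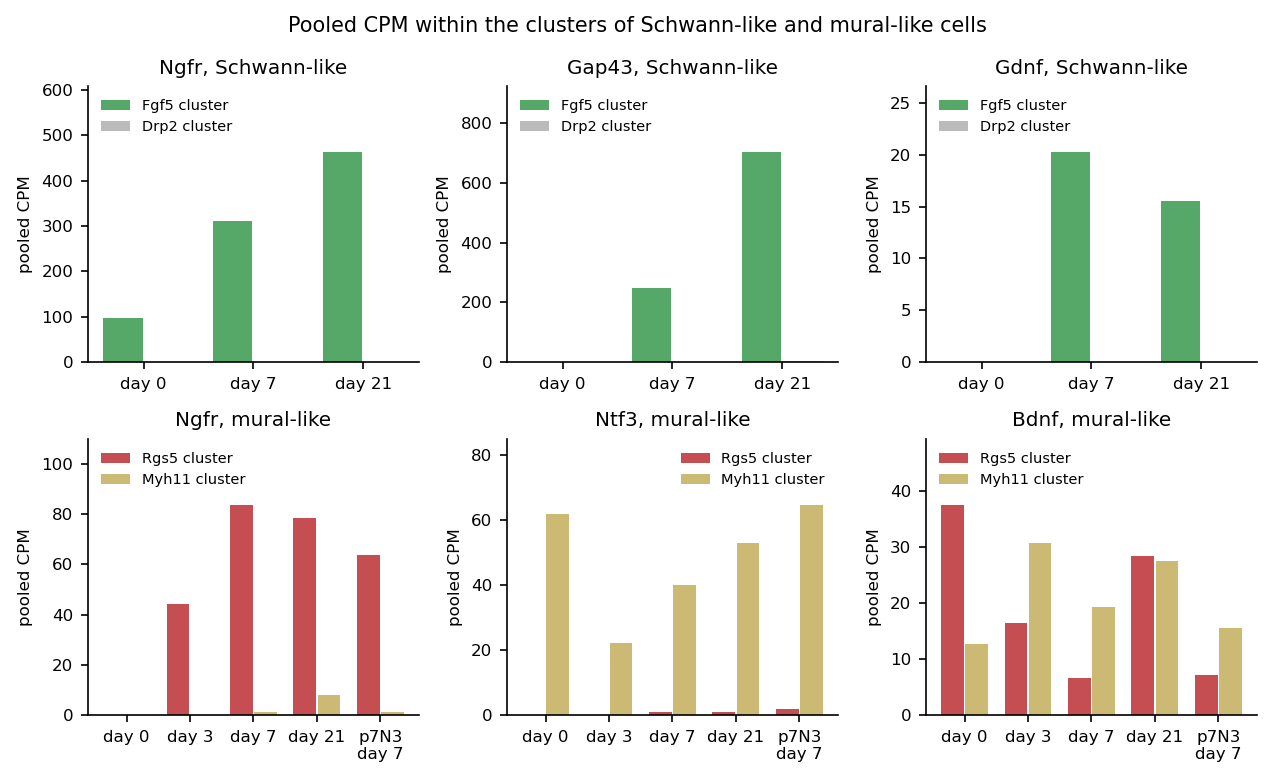
Pooled CPM over all libraries of a group within the Fgf5 and Drp2 clusters of Schwann-like cells (upper row) and the Rgs5 and Myh11 clusters of mural-like cells (lower row), without error bars because libraries were pooled. Ngfr, Gap43 and Gdnf appear in the Fgf5 cluster, Ngfr of mural-like cells in the Rgs5 cluster, and Ntf3 in the Myh11 cluster.

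Of the other 44 list genes, 32 were tested in mural-like cells, of which 7 rose and 8 fell at day 3, 9 rose and 12 fell at day 7, and 6 rose and 4 fell at day 21. Of the 12 that fell at day 7, 4 were myelin genes and 2 repair Schwann cell genes. The neurotrophin receptors Ntrk2 (TrkB) and Ntrk3 (TrkC) fell at day 7, from means of 167 to 71.7 CPM and of 54.4 to 4.86 CPM, and both rose from day 7 to day 21. Markers of macrophages in the mural-like sums went from 77.2 to 96.5 CPM at day 0 to 345 to 1137 CPM at day 7. Ngfr was at 0 to 0.810 CPM in the day 7 monocyte/macrophage-like cells and, pooled, at 306 CPM in the day 7 Schwann-like cells. The part of RNA from other cells in the mural-like values was not tested.

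In stromal-like cells Bdnf and Artn rose at day 3, day 7 and day 21, Gdnf rose at day 3 and day 7, and Ntf3 fell at all 3 times. At day 3, 3 members rose and 3 fell, where 52.0% of 16284 genes passed. At day 7, 4 rose and 1 fell (45.5% of all genes), at day 21, 3 rose and 2 fell (25.3%), and at day 21 against day 7, 2 rose and 1 fell (32.3%). With so many genes changed, these counts of 7 are read as a description. The median log2 change of the members, which moved in both directions, was 0.32 at day 3, 0.90 at day 7 and 0.83 at day 21 against day 0, and -0.24 at day 21 against day 7, while that of all genes was 0.14, 0.13, 0.05 and -0.06.

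Bdnf read 0, 0, 1.64 and 0.751 CPM at day 0 and 4.59, 2.13 and 3.86 CPM at day 3. It read 18.8, 14.2, 16.9 and 15.4 CPM at day 7 and 11.2, 6.69, 7.90 and 16.4 CPM at day 21. Each later library lay above day 0, with day 3 between the others. The log2 fold changes were 2.54 ± 0.75 at day 3 (adjusted p = 0.00708), 4.67 ± 0.57 at day 7 (adjusted p = 9.07e-07) and 4.13 ± 0.62 at day 21 (adjusted p = 4.21e-05).

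Artn read 0.472, 0, 1.10 and 0.751 CPM at day 0, 7.15, 5.06 and 6.92 CPM at day 3, 7.24, 4.76, 6.19 and 4.19 CPM at day 7, and 5.27, 2.62, 5.27 and 5.23 CPM at day 21. The day 3 libraries spanned about the range of day 7, and no day 0 library overlapped with a later one. The log2 fold changes were 3.42 ± 0.52, 3.13 ± 0.51 and 2.89 ± 0.55 at day 3, day 7 and day 21, with adjusted p of 9.49e-06, 3.82e-05 and 4.74e-04. Gdnf had 0 UMIs at day 0 and read 1.81, 1.26 and 1.73 CPM at day 3 and 1.07, 1.36, 0.589 and 0.849 CPM at day 7. When pooled, it lay 3.14-fold above the day 0 floor of 3 counts at day 3 (adjusted p = 0.0036) and 1.93-fold at day 7 (adjusted p = 0.0193). The day 7 call was lost without day 0 replicate 1 (adjusted p = 0.05937) and with tenocyte-like and chondrocyte-like cells added (adjusted p = 0.1455). At day 21 Gdnf read 0.427, 0.291, 0 and 0.682 CPM (adjusted p = 0.16).

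Ntf3 fell. It read 33.5, 58.9, 60.8 and 42.8 CPM at day 0, 0.961, 1.42 and 0.532 CPM at day 3, 2.97, 1.59, 5.82 and 1.88 CPM at day 7, and 15.4, 11.9, 8.23 and 5.68 CPM at day 21. The groups did not overlap with day 0 at any time, and day 21 overlapped slightly with day 7. The log2 fold change was -5.34 ± 0.50 at day 3 (adjusted p = 1.83e-08), -3.90 ± 0.38 at day 7 (adjusted p = 5.14e-08) and -2.16 ± 0.37 at day 21 (adjusted p = 1.76e-04), and from day 7 to day 21 it rose by 1.74 ± 0.38 (adjusted p = 0.00157). In endothelial-like cells Ntf3 read 44.6, 50.4, 40.1 and 36.3 CPM at day 0, 1.24, 1.49, 4.68 and 3.99 CPM at day 7, and 23.5, 49.2, 27.3 and 17.0 CPM at day 21, given as values without a test. Over all cells of a library Ntf3 averaged 40.2 ± 7.42 CPM at day 0, 0.593 ± 0.1805 at day 3, 1.85 ± 1.09 at day 7 and 10.4 ± 3.49 at day 21, which mixes cell numbers with levels per cell.

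Gfra1 in stromal-like cells read 18.4, 21.8, 12.1 and 12.8 CPM at day 0, 18.2, 18.5 and 14.4 CPM at day 3, 42.3, 18.6, 29.3 and 21.3 CPM at day 7, and 28.6, 20.7, 24.7 and 30.8 CPM at day 21. The groups overlapped. It was called higher at day 7 (log2 0.90 ± 0.29, adjusted p = 0.0133) and at day 21 (0.83 ± 0.30, adjusted p = 0.0427). The first call was lost without day 0 replicate 3 (adjusted p = 0.06091) and with tenocyte-like and chondrocyte-like cells added (adjusted p = 0.06448), and in the Myoc cluster described below, alone, the log2 fold change was -0.94 (adjusted p = 0.2172). The second was lost with tenocyte-like and chondrocyte-like cells added (adjusted p = 0.4981), in the Myoc cluster (adjusted p = 0.696), with replicates 1 to 3 only (adjusted p = 0.147), with DESeq2's size factors (adjusted p = 0.05308), and without day 0 replicate 1, 3 or 4 or day 21 replicate 1 or 4 (adjusted p 0.06637 to 0.1412).

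Ngfr was low in stromal-like cells, at 1.89, 6.40, 1.10 and 3.76 CPM at day 0 and 0.213, 0.237 and 0.532 CPM at day 3, and it was lower at day 3 by a log2 fold change of -2.91 ± 0.87 (adjusted p = 0.00749). It read 1.98, 0.981, 0.810 and 0.182 CPM at day 7 and 3.98, 4.66, 1.32 and 3.18 CPM at day 21, higher at day 21 than at day 7 (log2 1.78 ± 0.51, adjusted p = 0.0102). That call was lost with tenocyte-like and chondrocyte-like cells added (adjusted p = 0.2147) and with finer clusters (adjusted p = 0.05055). Schwann markers summed to 170 to 232 CPM in these sums at day 0 and 52.1 to 86.6 CPM at day 3, and their part in the Ngfr level was not tested. Gap43 read 22.2, 34.6, 22.5 and 29.3 CPM at day 0, 5.55, 6.40 and 8.25 CPM at day 3, 29.1, 37.4, 20.6 and 19.2 CPM at day 7, and 11.5, 9.02, 13.2 and 12.4 CPM at day 21. Day 3 and day 21 lay under day 0 without overlap while day 7 overlapped with it. The log2 fold changes were -1.77 ± 0.26 at day 3 (adjusted p = 6.52e-06), 0.11 ± 0.22 at day 7 (95% interval -0.34 to 0.56), -1.09 ± 0.24 at day 21 (adjusted p = 0.00195) and -1.20 ± 0.20 at day 21 against day 7 (adjusted p = 1.24e-04).

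**Figure D5:**
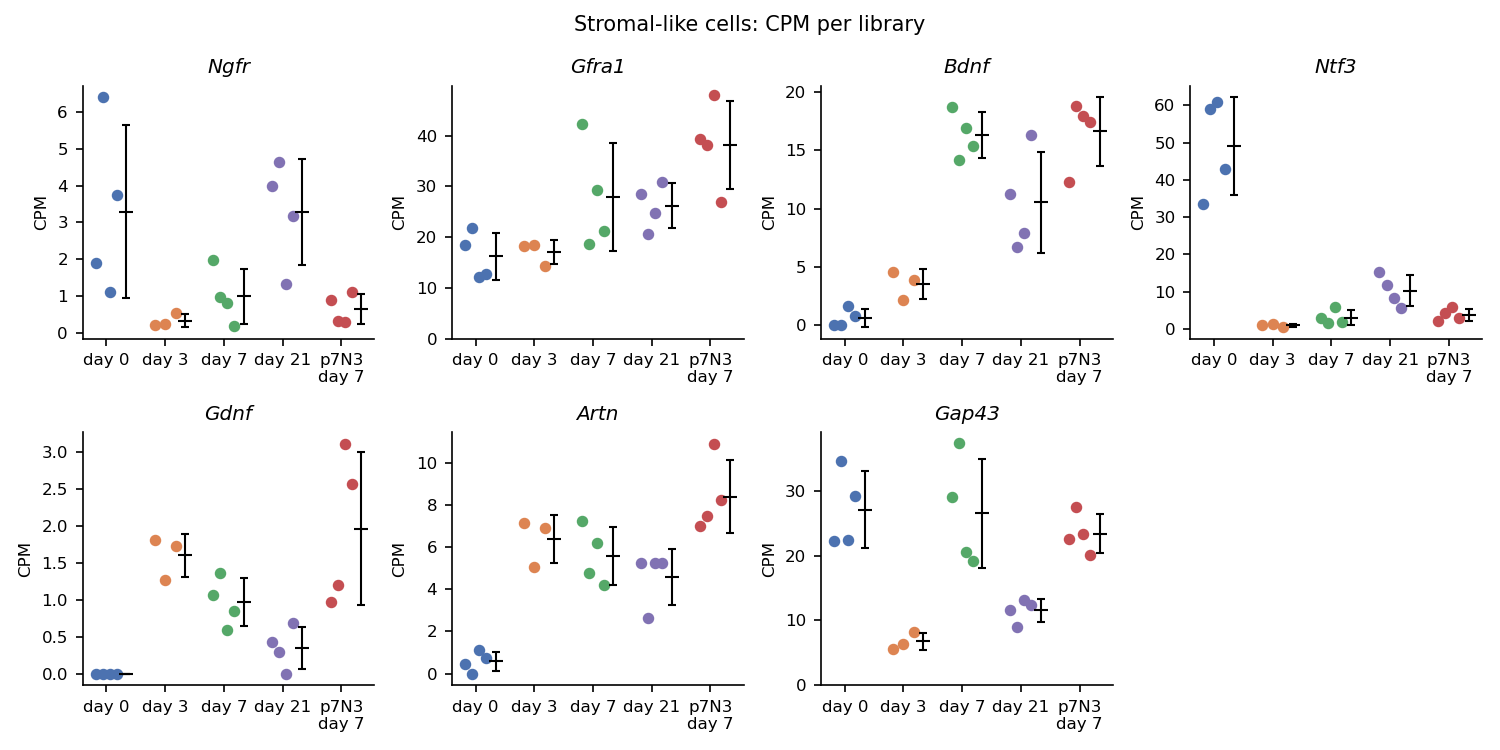
CPM of the 7 genes in stromal-like cells, with 1 point per library and the mean ± SD of each group of 3 or 4. Bdnf and Artn lie above day 0 in all later libraries, Ntf3 lies under day 0 in all of them, and Gap43 is low at day 3 and day 21 only.

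Stromal-like cells formed 5 clusters whose makeup changed with time. At day 0, 1116 of 1146 cells lay in a cluster led by Myoc, and at day 3, 751 of 815 in a cluster led by Cfd and Adipoq. Its leading genes also include Cidec and Car3, genes known from adipocytes. The others are Bglap2, Prg4, Pla2g2e, Col22a1, Aldh1a2 and Il13ra2. Its leading genes hold none of the 10 stromal markers, and neither do the leading genes of the other 4 stromal-like clusters. All 10 markers were detected in the day 3 sums, at 25650 to 32490 CPM summed against 47350 to 56820 CPM at day 0. The day 3 values of stromal-like cells are thus mostly those of the Cfd and Adipoq cluster. The part of RNA from adipocytes or other cells in them was not tested. A cluster led by Gzme held 875 of 3776 cells at day 7 and 0 cells at day 0. Of the 917 Bdnf UMIs of day 7 stromal-like cells, 704 lay in the Gzme cluster (50.0 CPM pooled, against 0 to 5.40 CPM in the other 4), as did 221 of 311 Artn UMIs (15.7 CPM) and 1002 of 1551 Gfra1 UMIs (71.2 CPM). Ntf3 was highest in the Myoc cluster, at 47.9 CPM at day 0, 18.6 at day 7 and 28.9 at day 21. Within the Myoc cluster alone, 2 members were called at day 7, Ntf3 lower (log2 -1.32, adjusted p = 0.008186) and Gap43 higher (log2 1.39, adjusted p = 0.0005718), and none at day 21. That fit rested on 1836 cells and 16 libraries, against 10676 and 19 for all stromal-like cells. Its fewer calls are therefore not read as an absence of change in the Myoc cluster. Bdnf had 0 UMIs in the 199 cells of that cluster at day 7. Changes within a cluster and changes in makeup were not separated further.

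Of the other 44 list genes, 37 were tested in stromal-like cells, of which 12 rose and 15 fell at day 7, 11 rose and 16 fell at day 3, and 9 rose and 9 fell at day 21. Of the 15 that fell at day 7, 6 were myelin genes and 4 repair Schwann cell genes. The part of Schwann cell RNA in these falls was not tested. The signalling receptors Ret (from a mean of 50.2 to 8.79 CPM), Ntrk2 (110.3 to 25.7 CPM) and Ntrk3 fell at day 7, while the co-receptors Gfra2 (6.26 to 37.9 CPM), Gfra4 and Ncam1 rose. Nrtn, the fellow GDNF family ligand neurturin, fell from 12.2 to 3.04 CPM. The heparin-binding factors Ptn (40.5 to 638 CPM) and Mdk (42.9 to 282 CPM), which promote neurite growth, rose.

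Monocyte/macrophage-like cells held few transcripts of the 7 genes, and no member passed the test in any comparison. Ntf3 (13 UMIs) and Gdnf (11 UMIs) were too rare to be tested, and 5 were tested. Without the filter on low counts a member was called at day 3 and at day 7, as given below. Of all 14307 genes, 31.0% passed at day 3, 26.8% at day 7, 15.9% at day 21 and 13.3% at day 21 against day 7. No member had an unadjusted p under 0.05 in any of them, and DESeq2 called none. The level of each member was at most 3.46 CPM in any library, apart from Ntf3 at day 0, which read 3.09, 6.91, 3.25 and 0 CPM from 5 UMIs in all. At day 7, Gap43 read 1.62, 0.979, 1.15 and 0.478 CPM and Ngfr 0.810, 0.140, 0 and 0.359 CPM. For Gap43 and Ngfr a difference from day 0 was not detectable at this depth, since the day 0 floor was 1.90 CPM. Pooled Ntf3 lay above that floor at day 0, at 3.17 CPM, against 0.0695 CPM at day 3, but was too rare for the main test. The related co-receptor Gfra2 did differ in these sums, with means of 79.5, 2.15, 4.61 and 10.4 CPM on day 0, 3, 7 and 21 (adjusted p = 5.61e-10, 1.2e-08 and 2.01e-05). The makeup of the cells differed too. A cluster led by genes such as Cd209f and Folr2 held 299 of 394 cells at day 0, 85 of 3862 at day 3, 335 of 4902 at day 7 and 207 of 684 at day 21. Its part in the Gfra2 values was not tested.

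To ask whether the CD47-activating peptide altered these genes, p7N3 was compared with day 7. No member was called in stromal-like cells, where 0.0430% of all genes passed, in mural-like cells (0.00764%) or in monocyte/macrophage-like cells (0.0280%), and DESeq2 called 0 members in each. Unadjusted p was under 0.05 for 3 members in stromal-like cells, 1 in mural-like cells and none in monocyte/macrophage-like cells. The share of all genes under that unadjusted limit was not computed, so that no conclusion is drawn from these counts. In stromal-like cells Artn read 6.99, 7.49, 10.9 and 8.24 CPM with p7N3, against 7.24, 4.76, 6.19 and 4.19 CPM at day 7, and the groups overlapped (log2 0.59, 95% interval 0.17 to 1.014, adjusted p = 0.371). Gdnf read 0.969, 1.21, 3.11 and 2.57 CPM with the peptide (log2 1.007, 95% interval 0.19 to 1.83, adjusted p = 0.464), and Gfra1 read 39.3, 38.2, 48.0 and 26.8 CPM (log2 0.46, 95% interval 0.04 to 0.88, adjusted p = 0.523). Bdnf read 12.3, 18.8, 18.0 and 17.4 CPM (log2 0.04, 95% interval -0.41 to 0.49). In mural-like cells Ngfr read 68.4, 52.3, 59.7 and 40.6 CPM (log2 -0.40, 95% interval -0.82 to 0.03), and Ntf3 read 5.70, 13.1, 19.9 and 7.86 CPM (log2 0.87, 95% interval 0.01 to 1.73, adjusted p = 0.906). In the 3 to 14 Schwann-like cells per p7N3 library, Ngfr read 416, 162, 410.3 and 0 CPM and Gap43 24.4, 202, 98.5 and 153 CPM, which were not tested.

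The share of cells with a UMI was also compared, after thinning each cell to 1500 UMIs. Gap43 was found in 0 of 97 day 0 Schwann-like cells, which allows a share of up to 3.09%, and in 26.2% of 80 cells at day 7 and 23.8% of 181 at day 21. Ngfr was found in 3.09%, 30.0% and 22.1% of them. In mural-like cells Ngfr was found in 0 of 170 cells at day 0, which allows up to 1.76%, and in 9.66% of 559 at day 7. Without thinning, these shares at day 7 were 52.5% for Gap43 and 71.2% for Ngfr in Schwann-like cells and 38.6% for Ngfr in mural-like cells, at median depths of 11602.5 and 8447 UMIs. For comparison, after thinning, 0 of 232 day 7 T/NK lymphocyte-like cells had Ngfr, which allows up to 1.29%, and 0.431% had Gap43. Without thinning, 1.293% of them had Ngfr and 1.293% had Gap43, at a median of 4203.5 UMIs. Stromal-like cells had Ntf3 in 7.69% of 1080 cells at day 0, 1.006% of 3776 at day 7 and 2.45% of 1632 at day 21, and Bdnf in 0%, 1.96% and 0.919%. Over 59 exact two-sided permutation tests of library shares, 12 reached 0.02857, the smallest p that 4 against 4 libraries allow, and the smallest adjusted p was 0.1405. With so few libraries a share could pass the correction only if most of the tests reached that smallest p. None passed, and no conclusion is drawn from this. Limits for a count of 0 cover counting error only and concern cells with a UMI, not cells expressing the gene.

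Finally, the genes most like each member were listed over 182 sums of 15 cell types and 14063 genes, by Pearson correlation of log levels. The sums share libraries and depth, so that the values are descriptions. Closest to Gfra1 were Wbscr17 (0.826) and Matn2 (0.816), to Ntf3 Fam124a (0.731) and Id3 (0.731), to Gdnf Fgf5 (0.722) and Btc (0.716), to Bdnf Dzip1l (0.715) and Cacna2d1 (0.713), to Artn 5730559C18Rik (0.681) and Slit2 (0.643), to Gap43 Iglon5 (0.675) and Nav3 (0.67), and to Ngfr Chst8 (0.624) and Ndst3 (0.623).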

How the data were processed

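Droplet libraries (10x v2, 3 prime) of the tenotomy site were aligned to mm10 and counted with Cell Ranger by the authors, who deposited UMI counts per gene and barcode, not normalized. Barcodes passed with 500 detected genes or more and no more than 25% of UMIs from mitochondria, the limits of the study, and no doublets were removed. Cells were clustered with scanpy 1.11.5 (2000 variable genes, 30 components, 20 neighbours, Leiden resolution 0.8) after leaving the members and related genes that mark no cell type out of the variable genes, and named from marker lists. Libraries shared at most 22 barcodes per pair. Each library's counts were added up over a cell type if it had 10 cells or more, and genes with at least 15 UMIs were tested by edgeR 4.0.16 quasi-likelihood with TMM and Benjamini-Hochberg adjustment over all genes tested, called under 0.05. The 5 groups shared 1 estimate of spread per cell type, and comparisons share the day 0 or day 7 libraries. DESeq2 1.42.0, other filters, scalings, cell cuts and left-out replicates were alternatives. All members were named for their values, and related genes where called. The members, lists and tests were chosen with earlier results of these data known. Replicate numbers did not pair the samples. The cluster-only comparisons were chosen after seeing the data. Some genes of the lists are not reported here.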

Additional observations from a re-analysis of the deposited data

Results flagged for a closer look

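In Schwann-like cells, Gfra1 in day 0 replicate 2 stood apart at 150.66 CPM, against 24.96 to 29.4 CPM in the other 3 libraries, and in day 21 replicate 4 at 76.069 CPM, against 40.1 to 44.4 CPM. Of 29 groups looked at in this way, 2 held such a sample, and chance gives about 1 in 20.

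At day 3 against day 0, Ngfr was higher in every mural-like library and lower in every stromal-like library, with fitted log2 changes that lay 11.26 apart. At day 21 against day 0, Gap43 was higher in every Schwann-like library and lower in every stromal-like library, 10.78 apart. Day 0 was at 0 in the mural-like and Schwann-like sums, so that these distances depend on the prior count, and the differences between cell types were not tested.

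Outside the main cell types, Gap43 in endothelial-like cells averaged 70.632 ± 53.5 CPM at day 7 (SD, n = 4) and 42.731 ± 17.4 CPM with p7N3 (n = 4), against at most 5.02 CPM in any day 0 library. Ngfr in perineurial-like cells, the sheath cells of nerve fascicles, averaged 35.271 ± 11.2 CPM at day 21 (n = 3), against 3.09 CPM at day 0 (n = 3).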

How the results depend on the processing

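Most results kept their direction and their side of the threshold. Over the other settings chosen at the outset, 511 of 524 were the same in stromal-like cells, 425 of 451 in mural-like, 302 of 311 in monocyte/macrophage-like and 229 of 238 in Schwann-like cells, with none reversed. Settings in which a member was not tested are not in these counts, so that a call lost through a filter is missing from them. Restricting stromal-like cells to the Myoc cluster left 2 members called at day 7, 0 at day 21 and 1 at day 21 against day 7, and adding tenocyte-like and chondrocyte-like cells left 3 at day 7. In the Myoc cluster Gfra1 at day 7 turned to -0.94 (adjusted p = 0.2172). Restricting mural-like cells to the Myh11 cluster left 0 members called at day 7, day 21 and day 21 against day 7, and the Rgs5 cluster left 0 at day 3 and 1 at day 7, day 21 and day 21 against day 7. The cluster-only sums had fewer cells, from 16 libraries for Myoc and Myh11 and 17 for Rgs5. Their counts of calls are therefore not compared with the main ones. In the Rgs5 cluster Ntf3 turned to 2.72 at day 7 (adjusted p = 0.8642) and 2.94 at day 21 (adjusted p = 0.8793), from 4 and 3 UMIs. The count of mural-like members called at day 21 was 1 with replicates 1 to 3 only, with at most 10% mitochondrial UMIs and with all genes in the clustering, each time through the loss of Ntf3, and the cause was not tested. Without a filter on low counts 1 member was called in monocyte/macrophage-like cells at day 3 and at day 7. With edgeR's own expression filter 2 members were called in Schwann-like cells at day 7, against 4 in the main test. Leaving out 1 replicate gave 4 to 6 members called in stromal-like cells on day 7, 4 to 5 on day 21, and 3 to 4 between day 21 and day 7. It gave 1 to 3 in mural-like cells on day 21, 2 to 3 between day 21 and day 7, and 3 to 4 in Schwann-like cells at day 7. Samples with the same replicate number did not deviate together (median correlation 0.00595, 0.0106 and 0.000707 in stromal-like, mural-like and monocyte/macrophage-like cells), and with a replicate block the members called were 6, 5, 5, 3 and 0 in stromal-like cells, 3, 3, 2, 2 and 0 in mural-like cells, 0 in monocyte/macrophage-like cells and 4, 2 and 0 in Schwann-like cells, in the order of comparisons used in the report. DESeq2's size factors moved the median log2 change of all genes by -0.106 and -0.156 in mural-like cells at day 7 and day 21, -0.125 in monocyte/macrophage-like cells at day 3, and -0.109 and -0.115 in Schwann-like cells at day 7 and day 21. Depth limits day 0, where the floor was 7.39 CPM in Schwann-like and 3.67 CPM in mural-like cells, and the Schwann-like cells of day 3 and p7N3, which were too few to test.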

Other observations

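The endothelial Gap43 UMIs lay mainly in the cluster led by Ccl21a, Prox1 and Lyve1, genes of lymphatic endothelium, at pooled levels of 21.8 CPM at day 0, 352 at day 7, 52.7 at day 21 and 337 with p7N3. Endothelial Ntf3 was highest in the cluster led by Timp4 and Aqp7, at 45.6 CPM at day 0, 13.4 at day 7 and 45.2 at day 21. Satellite/muscle-like cells at day 0 had Ntf3 at 85.5 ± 7.18 CPM (SD, n = 4). Perineurial-like cells had Gfra1 at 176 ± 68.3 CPM at day 0 (n = 3) and 111 ± 57.5 CPM at day 21 (n = 3). These values were not tested.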
